A study of Mus musculus with 2 samples.

Results

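The matrix metalloproteinases (Mmp), the membrane-bound Adam and secreted Adamts proteases, the Adamts-like proteins and the tissue inhibitors of metalloproteinases (Timp) were examined in cells of the mouse knee. Members were all gene columns whose symbol was Mmp, Adam, Adamts or Adamtsl followed by a number, or Timp1 to Timp4, which gave 83 of 32245 genes. They comprised 22 Mmp, 33 Adam, 19 Adamts, 5 Adamtsl and 4 Timp genes. Of these, 71 had a value above 0 in at least 1 cell and 12 were listed at 0 in every cell, namely Mmp1b, Mmp7, Mmp20 and 9 Adam genes.

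Zinc-dependent metalloproteinases cut collagens, proteoglycans and membrane proteins, and most are made as inactive precursors. In cartilage, Mmp13 is the main enzyme that cuts type II collagen at the growth plate, while Adamts4 and Adamts5 cleave aggrecan. Timp proteins bind the active site of these enzymes, and Timp3 also inhibits Adamts and Adam proteases.

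Single-cell RNA sequencing was performed on knee joints of female mice at 1 month of age, with 1 library per genotype and each library made from a pool of several mice. Control mice were Stat3fl/fl, in which both Stat3 alleles carry loxP sites and no Cre is present. Mutant mice (Stat3KO) were Stat3fl/fl with Cre inserted at the aggrecan gene Acan, written Acan-Cre+/Cre in the labels and described in the methods as a tamoxifen-inducible allele that was heterozygous and induced shortly after birth; the driver is thus active in chondrocytes and other Acan-expressing cells, and the control group carried no Cre. Sorting was meant to deplete dead, endothelial and blood cells. No comparison between genotypes has a replicate check, and no test was made.

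Cells were read in 5 classes: those carrying a code in a classification column of the deposited tables, and those with values above 0 for both Pi16 and Cd34 (fibroblast markers), Bglap and Ibsp (osteoblast markers), Tnmd and Thbs4 (tendon and ligament markers) or Prg4 and Clic5 (markers of the synovial lining). The code names no cell type, but the methods describe chondrocytes chosen for Sox9 and Col2a1, a transcription factor and a collagen of cartilage, and all 501 control and 332 Stat3KO cells with the code were above 0 for both; they are called marked chondrocytes. A further 512 control and 3 Stat3KO cells were above 0 for both genes without the code, and 100% of these carried globin transcripts. Control and Stat3KO cells numbered 475 and 296 marked chondrocytes, 83 and 30 Pi16+Cd34+, 148 and 93 Bglap+Ibsp+, 269 and 30 Tnmd+Thbs4+, and 219 and 59 Prg4+Clic5+ cells. These are 1194 of 4903 control and 508 of 1340 Stat3KO cells; 46 and 38 cells that met more than 1 definition were left out, and no doublet caller was run. Cells of the Stat3KO library were deeper in every class, with medians of 5125.8 to 8768.7 UMIs (unique molecular identifiers) per cell against 3069.3 to 5837.9 in the control, so a value above 0 was easier to reach there. Globin transcripts were present in 57.4% to 78.3% of control cells of the 4 gated classes and in 0% to 4.30% of Stat3KO cells, and in no marked chondrocyte of either library, although they made up at most 0.0700% of the UMIs of any class. A total of 2 cell barcodes occurred in both libraries.

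The class definitions were checked against lists of other marker genes. Without Sox9 and Col2a1, the other 9 chondrocyte markers summed to 33775 CPM (counts per 1000000 UMIs of the class) in control and 21278 CPM in Stat3KO marked chondrocytes, against 69.4 and 57.8 CPM in Pi16+Cd34+ cells. The 7 markers of Pi16-type fibroblasts summed to 33528 and 25422 CPM in Pi16+Cd34+ cells, above each other class. The 8 osteoblast markers summed to 70364 and 81634 CPM in Bglap+Ibsp+ cells, one of them Bglap2, a near-identical copy of Bglap whose reads may be shared with it, and the 7 markers of the synovial lining to 8318 and 7845 CPM in Prg4+Clic5+ cells, above each other class. The fibroblast, the osteoblast and the tendon and ligament lists separated their classes less clearly. The fibroblast list was also at 16677 and 17901 CPM in Tnmd+Thbs4+ cells. The osteoblast list was also at 46554 and 28045 CPM in Tnmd+Thbs4+ cells, where Col1a1 alone was at 46504 and 27865 CPM. The tendon and ligament list was at 9944 and 8622 CPM in Tnmd+Thbs4+ cells, against 5498 and 4694 CPM in marked chondrocytes. Control Tnmd+Thbs4+ and Bglap+Ibsp+ cells also carried the 9 chondrocyte markers, at 3575 and 6942 CPM. The sums in the Stat3KO library were 1255.5 and 5913 CPM. In Bglap+Ibsp+ cells the sum was largely Col11a1 (4547 and 4256 CPM) and Col11a2 (1379 and 1591 CPM). Of all 11 chondrocyte markers, 9 were lower and 2 higher in Stat3KO than in control Bglap+Ibsp+ cells, with Acan at 313 and 16.4 CPM in control and Stat3KO cells. The part of these differences in the results below was not tested. Markers of leukocytes summed to at most 37.9 CPM in any class and library.

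Stat3, the targeted gene, was at 139.8 CPM in control and 99.0 CPM in Stat3KO marked chondrocytes, a log2 ratio of -0.49 (all ratios are log2 of Stat3KO over control CPM, each plus 1). In the other classes its ratio lay between -0.40 and 0.85. Reads counted near the 3′ end of a transcript carry no information on the loxP-flanked exons. Acan, whose locus carries the Cre, was at 5039 and 1828 CPM in marked chondrocytes, a ratio of -1.46, and the effects of Stat3 loss and of the Cre allele cannot be told apart in this design.

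The levels were first compared across classes, one gene at a time. A member was compared where it had a mean of at least 20 CPM over the 2 libraries and was above 0 in at least 10 cells of a class. This held for 33 members in at least 1 class, for 9 in all 5 classes, and for 50 in none. Of the 33, 24 had their highest level in the same class in both libraries, compared with 53.7% of the 7823 genes that met the same limits. In 15 of the 24 this was the Pi16+Cd34+ class, in 5 the Bglap+Ibsp+ class, in 3 the Prg4+Clic5+ class and in 1, Mmp3, the marked chondrocytes. The share of all genes with their highest level in each class was not counted. Whether the Pi16+Cd34+ class, with 83 control and 30 Stat3KO cells, was the highest more often for members than for other genes was thus not tested.

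**Figure D1:**
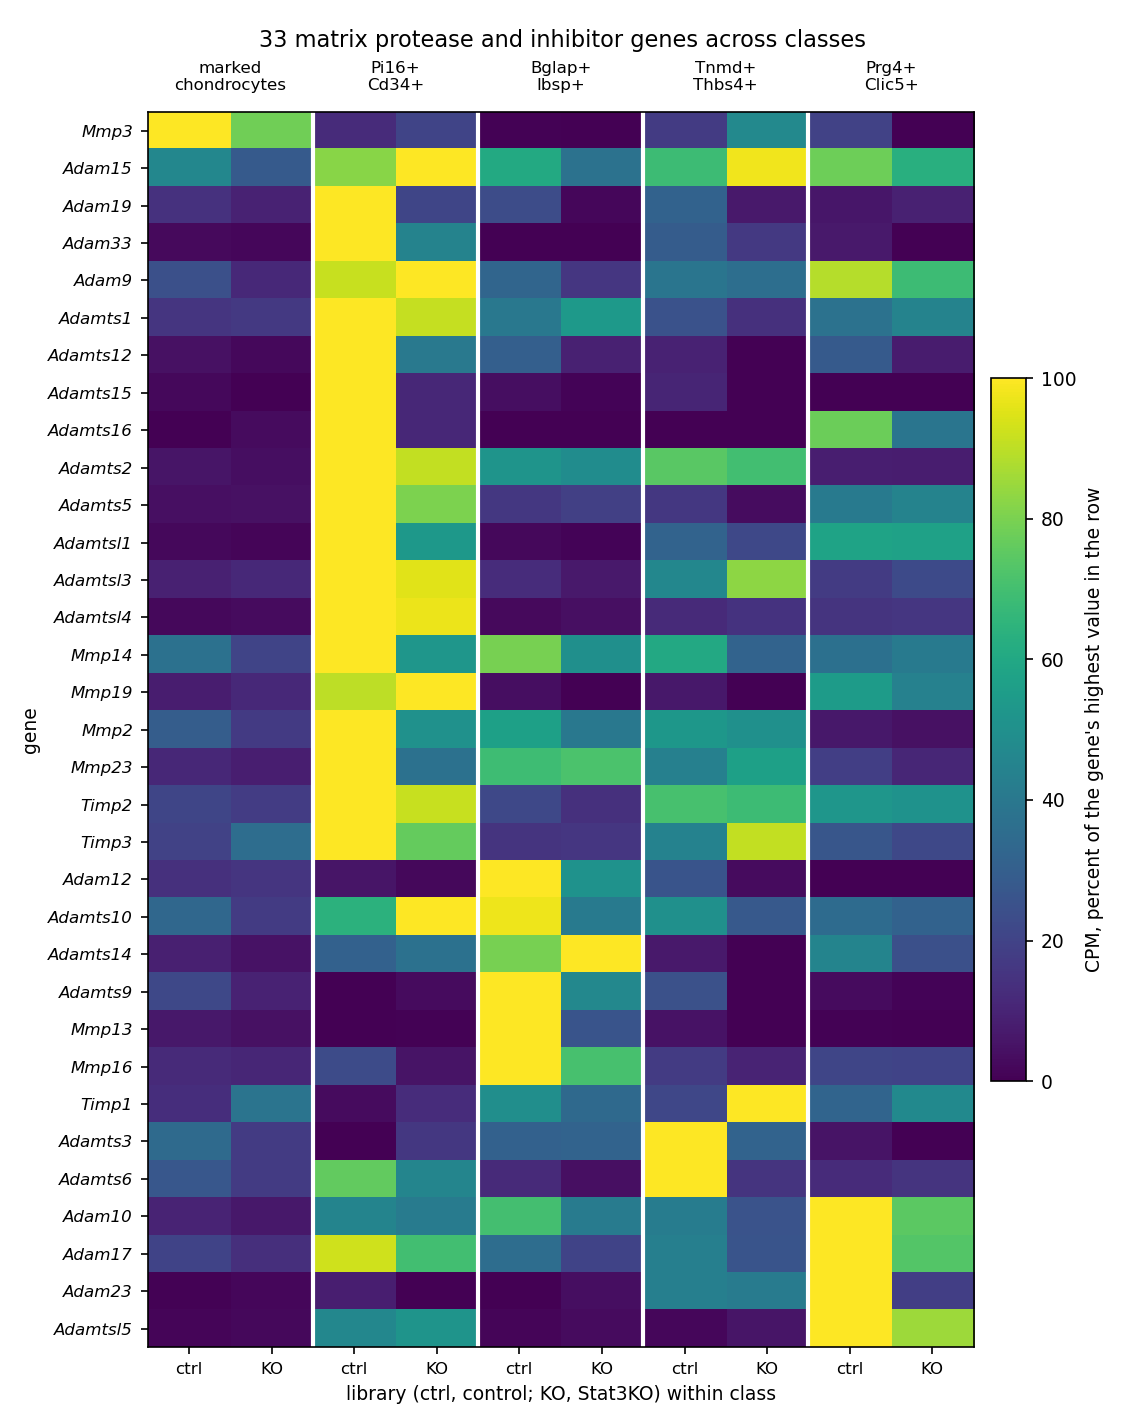
Level of the 33 members that met the limits (rows) in each class and library (columns; ctrl is the control and KO the Stat3KO library), as a percent of that gene's highest value. Rows are sorted by the class with the highest control level; most of the brightest cells lie in the Pi16+Cd34+ columns, while Mmp13, Mmp16, Adam12 and Adamts9 are brightest in control Bglap+Ibsp+ cells and Mmp3 in marked chondrocytes.

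Among the inhibitors, Timp2, which also takes part in the activation of Mmp2 by Mmp14, was highest in Pi16+Cd34+ cells, at 2423 CPM in control and 2220 CPM in Stat3KO cells. It followed with 1715 and 1659 CPM in Tnmd+Thbs4+ cells and 1277 and 1232 CPM in Prg4+Clic5+ cells. Marked chondrocytes (503 and 433 CPM) and Bglap+Ibsp+ cells (521 and 332 CPM) were lowest, and their order to each other differed between the libraries. In each class the log2 ratio of Timp2 between genotypes was within 2-fold, from -0.65 to -0.05. The gap between Pi16+Cd34+ cells and marked chondrocytes was larger than any of these in both libraries. That between marked chondrocytes and Bglap+Ibsp+ cells was smaller than the genotype difference in Bglap+Ibsp+ cells.

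Timp3, the inhibitor held in the extracellular matrix, was at 1075 and 820 CPM in Pi16+Cd34+ cells and at 475 and 976 CPM in Tnmd+Thbs4+ cells, so the highest class differed between libraries. Timp1, an inducible and freely diffusible inhibitor, was highest in Bglap+Ibsp+ cells of the control (322 CPM) and in Tnmd+Thbs4+ cells of the Stat3KO library (650.0 CPM), where 1 cell held 80.6% of its UMIs. Timp4 did not meet the limits in any class; it was at most 1.5 CPM in control and 13.1 CPM in Stat3KO classes.

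The Timp1 gene lies on the X chromosome (chrX:20870166-20874735, plus strand, GRCm38, Gencode M21) within Syn1, which is read from the other strand, and shares no exonic base with it. Timp3 (chr10:86300372-86349506, plus strand) lies within Syn3 in the same manner, but 1733 of its exonic bases overlap exons of Syn3. Whether the counting used strand is not given in the sources used here, so reads from these overlaps could belong to either gene. Of the 33 members, 6 share exonic bases with another gene, Adamts9 among them.

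**Figure D2:**
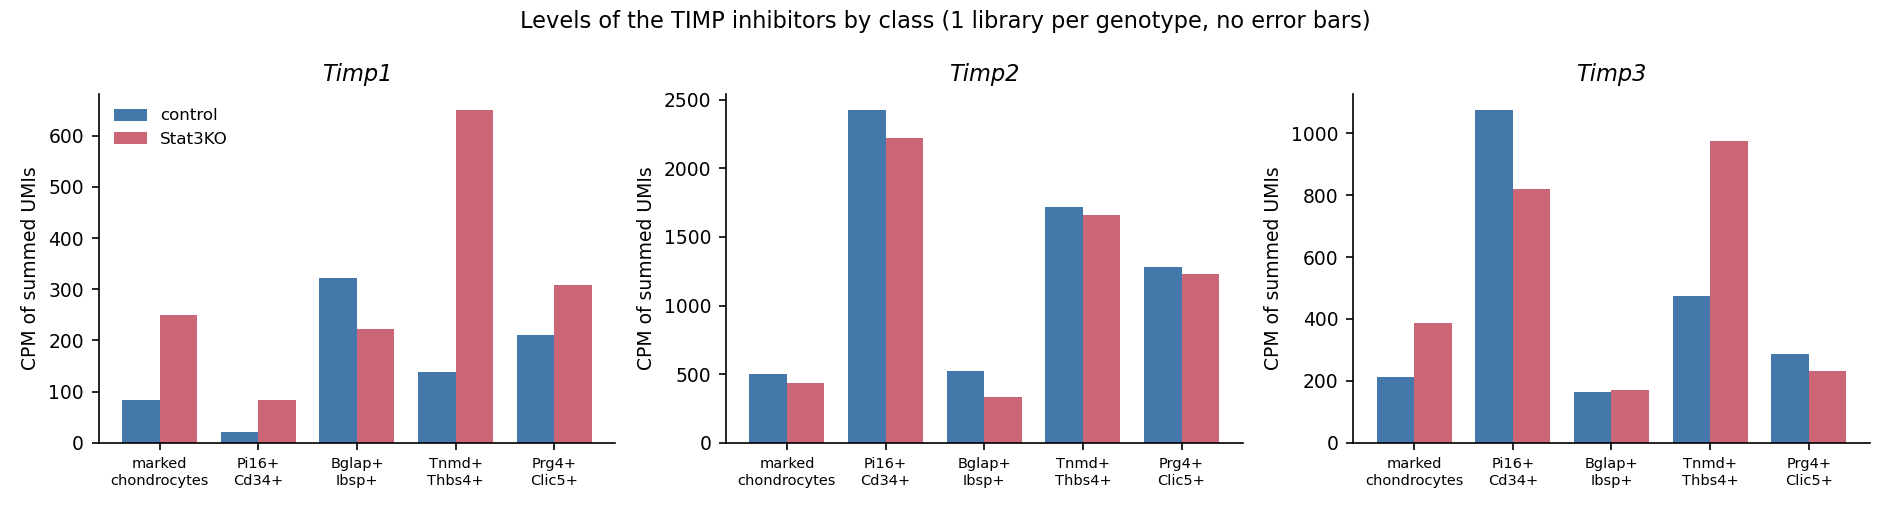
CPM of Timp1, Timp2 and Timp3 (vertical axes, from 0) in the 5 classes, blue for the control and red for the Stat3KO library; each bar is 1 library, so there is no error bar. The Timp2 bars of the 2 libraries are of similar height in each class, whereas Timp1 is higher in red in every class but Bglap+Ibsp+ and Timp3 is higher in red in marked chondrocytes and Tnmd+Thbs4+ cells.

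Of the gelatinases, Mmp2 was highest in Pi16+Cd34+ cells of both libraries (1109 CPM in control and 561 CPM in Stat3KO cells) and lowest in Prg4+Clic5+ cells (71.0 and 50.04 CPM). In the Stat3KO library its level in Tnmd+Thbs4+ cells, 556 CPM, was next to that in Pi16+Cd34+ cells. Mmp9 was near its floor throughout; Bglap+Ibsp+ cells held 16.2 CPM in the control, from about 10.8 UMIs, and 1.46 CPM in the Stat3KO library, from about 1 UMI. Mmp14, the membrane-type enzyme that activates Mmp2, was likewise highest in Pi16+Cd34+ cells, at 465 and 245 CPM, with Bglap+Ibsp+ cells next, at 370 and 231 CPM.

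Mmp13 and Mmp3 were highest outside the fibroblast class. Mmp13, collagenase 3, was at 799 CPM in control and 207 CPM in Stat3KO Bglap+Ibsp+ cells, and at no more than 52.4 CPM in the other 4 classes. Mmp3, stromelysin 1, was at 81.8 and 64.2 CPM in marked chondrocytes, and in Stat3KO cells it followed with 38.5 CPM in the Tnmd+Thbs4+ class. Its UMIs came from few cells, since only 6.11% of control marked chondrocytes (95% interval 4.13% to 8.65%) and 3.72% of Stat3KO marked chondrocytes (1.87% to 6.55%) were above 0, and 3 cells held 65.7% and 90.4% of the UMIs. All intervals are exact (Clopper-Pearson) and cover counting error only.

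The same concentration in few cells held for Mmp13, which was above 0 in 3.58% and 3.38% of marked chondrocytes and in 29.1% (21.9% to 37.1%) of control and 19.4% (11.9% to 28.9%) of Stat3KO Bglap+Ibsp+ cells. In Pi16+Cd34+ cells, at median depths of 3069.3 and 7594.4 UMIs, 0% of control cells (0% to 4.35%) and 3.33% of Stat3KO cells (0.0844% to 17.2%, 1 of 30 cells) were above 0 for Mmp13. The control share in marked chondrocytes thus lay within the interval of the Pi16+Cd34+ class, and that in Bglap+Ibsp+ cells lay above it.

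Mmp13 (chr9:7272514-7283331) and Mmp3 (chr9:7445822-7455975) are 2 of 9 Mmp genes in a cluster on chromosome 9 between positions 7272514 and 7699585 of GRCm38. The sequences before the starts of these 2 genes are shown because both matched the AP-1 motif TGANTCA (in capitals), and that before Timp1 because it was 2-fold higher in more classes than any other member. Each is 120 bases long, ends at the base before the start and is written 5′ to 3′ on the plus strand (RefSeq, GRCm38.p6), at chr9:7272394-7272513, chr9:7445702-7445821 and chrX:20870046-20870165, respectively.
Mmp13: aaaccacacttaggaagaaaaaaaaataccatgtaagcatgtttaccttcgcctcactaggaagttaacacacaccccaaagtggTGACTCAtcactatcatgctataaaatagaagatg
Mmp3: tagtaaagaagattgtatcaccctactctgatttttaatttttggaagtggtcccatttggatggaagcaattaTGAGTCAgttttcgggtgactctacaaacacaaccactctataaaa
Timp1: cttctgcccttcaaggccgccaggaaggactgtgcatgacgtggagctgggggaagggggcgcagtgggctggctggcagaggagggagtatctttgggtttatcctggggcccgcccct
The motif begins 35 bases before the start of Mmp13 and 46 before that of Mmp3. Windows of 300 bases around the starts were searched on both strands, with 24 windows for 21 members. TGANTCA was found in 3 of the 24 (Adam19, Mmp13 and Mmp3) and in 7.79% of 32544 windows of all genes. The STAT motif TTCNNNGAA was found in 2 of the 24, both of Mmp23, and in 8.33% of all windows. It was not among the letters of the Timp1 window. These matches describe the sequence and do not show binding.

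The proteoglycan-cleaving Adamts5 and Adamts1 were highest in Pi16+Cd34+ cells. Adamts5, an aggrecanase, was at 664 and 533 CPM in this class, at 273 and 298 CPM in Prg4+Clic5+ cells and at only 26.1 and 30.6 CPM in marked chondrocytes. Adamts1, which cuts versican and aggrecan, had its highest level in the same class, at 478 and 435 CPM, and was at 72.8 and 79.2 CPM in marked chondrocytes. Adamts4, the other aggrecanase, did not meet the limits; its highest level was 32.5 CPM in control Bglap+Ibsp+ cells, against 7.46 CPM in the Stat3KO library, from about 21.7 and 4.96 UMIs. Each library thus held less aggrecanase RNA per UMI in the marked chondrocytes, in which the substrate Acan was at 5039 and 1828 CPM, than in Pi16+Cd34+ cells, in which Acan was at 15.3 and 13.0 CPM.

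Adamts2, which removes the amino-terminal propeptide of fibrillar procollagens, was at 419 and 380 CPM in Pi16+Cd34+, 311 and 292 CPM in Tnmd+Thbs4+ and 217 and 204 CPM in Bglap+Ibsp+ cells. This order was the same in both libraries. Col1a1, which encodes a substrate of it, had another order, with its highest level of 66459 and 69444 CPM in Bglap+Ibsp+ cells. Adamts9 was highest in Bglap+Ibsp+ cells (147 and 69.0 CPM). Adamts12 and Adamts15 were highest in Pi16+Cd34+ cells, at 145.9 and 59.2 CPM and at 152 and 16.9 CPM, respectively. The Adamts-like proteins have no protease domain; Adamtsl4 was highest in Pi16+Cd34+ cells (152 and 148 CPM) and Adamtsl5 in Prg4+Clic5+ cells (98.4 and 83.8 CPM).

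Adam10 and Adam17, the main sheddases of membrane proteins, were both highest in Prg4+Clic5+ cells of each library, with 151 and 113 CPM for Adam10 and 127 and 93.0 CPM for Adam17. For Adam17 the Pi16+Cd34+ class followed closely (118 and 88.7 CPM). Adam12 and the membrane-type Mmp16 were highest in Bglap+Ibsp+ cells, where Adam12 was at 185 and 94.6 CPM and Mmp16 at 165 and 117 CPM.

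**Figure D3:**
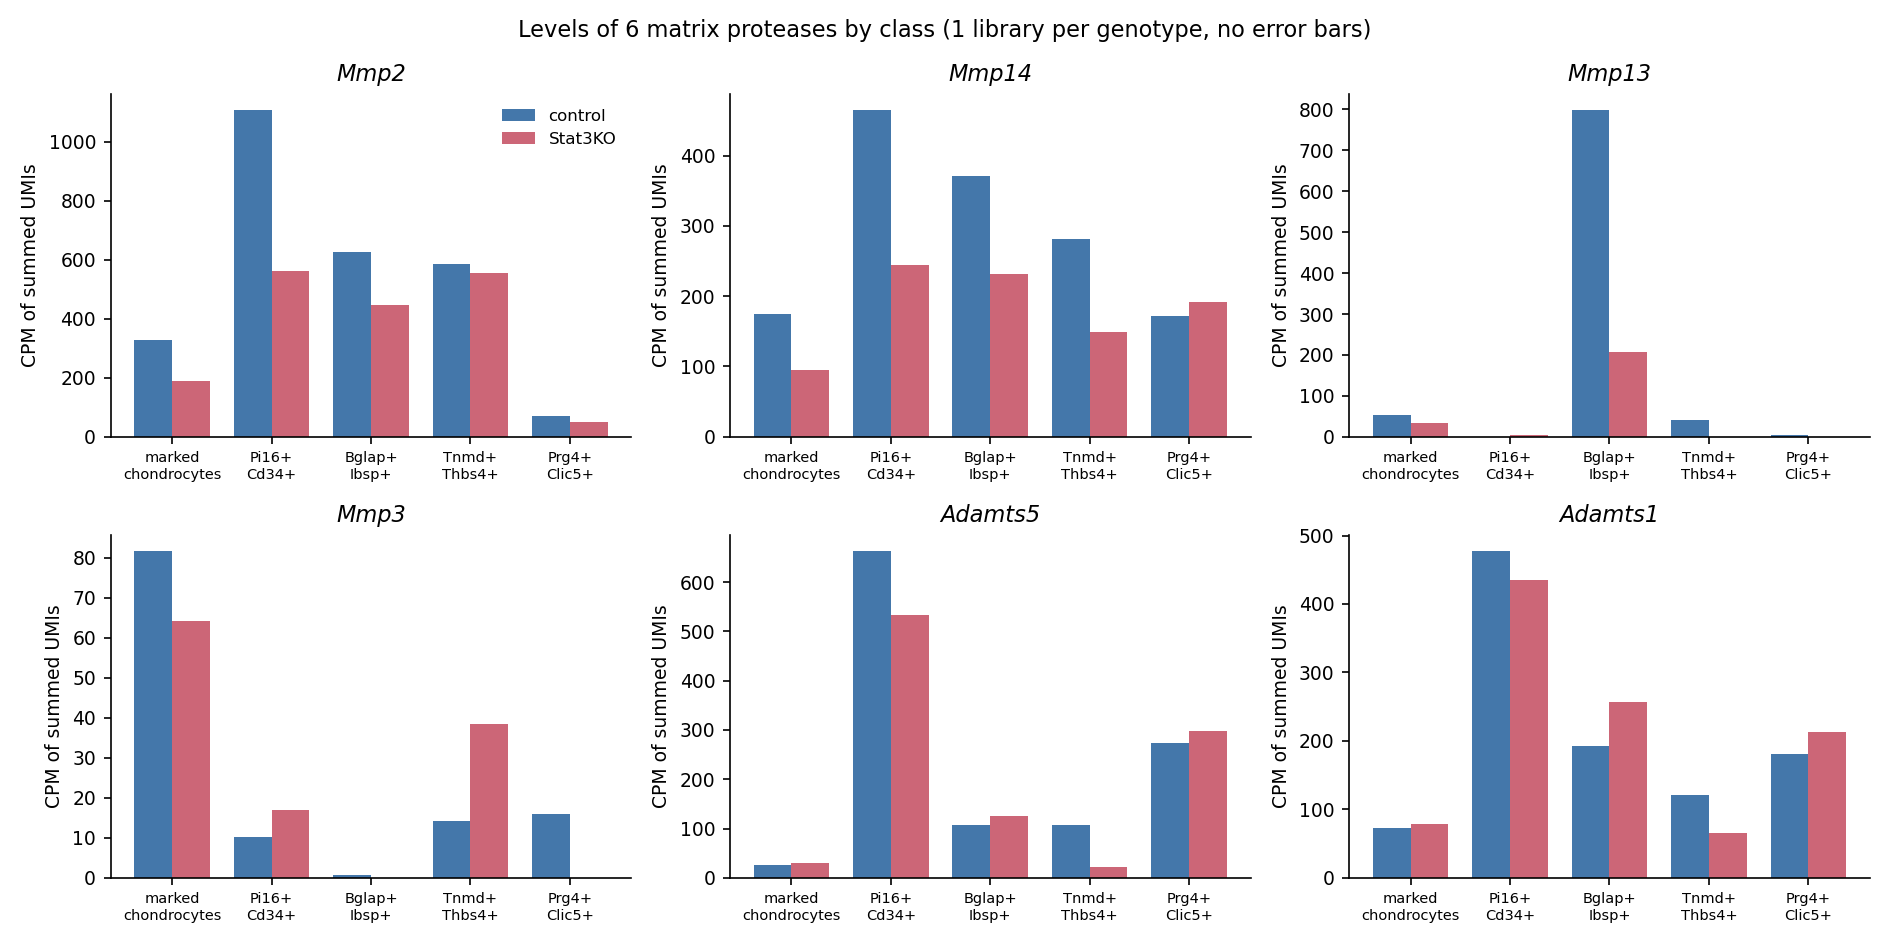
CPM of 6 proteases (vertical axes, from 0, differently scaled) by class, blue for the control and red for the Stat3KO library, 1 library per bar and no error bar. Mmp2, Mmp14, Adamts5 and Adamts1 are highest in Pi16+Cd34+ cells, Mmp13 in Bglap+Ibsp+ cells (799 and 207 CPM) and Mmp3 in marked chondrocytes (81.8 and 64.2 CPM).

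The genotypes were then compared within each class, to ask whether the protease and inhibitor genes differed in marked chondrocytes and in the other classes. Control Tnmd+Thbs4+ and Bglap+Ibsp+ cells also held Acan, at 356 and 313 CPM, so the classes may not separate targeted from untargeted cells. In marked chondrocytes 13 members met the limits, of which 1, Timp1, was at least 2-fold higher and 1, Adamts9, at least 2-fold lower in the Stat3KO library. Over the 5382 genes compared, 3.21% were 2-fold higher and 4.92% lower. The median ratio of the 13 was -0.35, beside -0.16 over all genes. When ratios were centred on that median of all genes, Timp1 and Timp3 were past 2-fold and higher, and no member was past 2-fold and lower.

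Timp1 was at 84.2 CPM in control and 250.2 CPM in Stat3KO marked chondrocytes, a ratio of 1.56, from about 241 and 690 UMIs. It was above 0 in 28.2% (24.2% to 32.5%) of control and 48.0% (42.2% to 53.8%) of Stat3KO cells. After each cell was thinned to 1000 UMIs, which removes the difference in depth, the shares were 7.97% and 16.2%. The cell with the most Timp1 UMIs held 4.13% of the control and 4.64% of the Stat3KO total, and without it the ratio was 1.55. The higher level was thus spread over many cells and was also seen at equal depth. When all 956 control and 299 Stat3KO cells above 0 for Sox9 and Col2a1 and in no other class were used, with or without the code, the ratio of Timp1 was 1.65 and that of Adamts9 was -1.11.

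Timp3 was at 213 and 386 CPM, a ratio of 0.85, with 12.7% and 20.4% of thinned cells above 0. Timp2 had a ratio of -0.22. The proteases that met the limits with the highest levels were lower in the Stat3KO library: Mmp2 was at 327 and 188 CPM (ratio -0.80) and Mmp14 at 174 and 95.3 CPM (ratio -0.86). At equal depth 24.1% of control and 14.4% of Stat3KO cells were above 0 for Mmp2, and 12.7% and 8.45% for Mmp14. All 4 Mmp genes compared in this class had ratios below 0, and none of them was past 2-fold. Timp1 and Timp3 had ratios above 0, as had Adam12, Adamts1 and Adamts5. Over all genes compared in this class, 3316 of 5382 had ratios below 0.

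Adamts9, a protease of versican and aggrecan, was at 31.9 and 13.9 CPM, a ratio of -1.14, and was above 0 in 14.9% (11.9% to 18.5%) of control and 9.46% (6.38% to 13.4%) of Stat3KO cells. Its ratio was within 2-fold under 4 of 11 alternative settings. Adamts5 and Adamts1 had ratios of 0.22 and 0.12, both within 2-fold. Adamts4 was not compared in this class, where it had about 18.2 control UMIs and about 1 Stat3KO UMI (0.902).

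**Figure D4:**
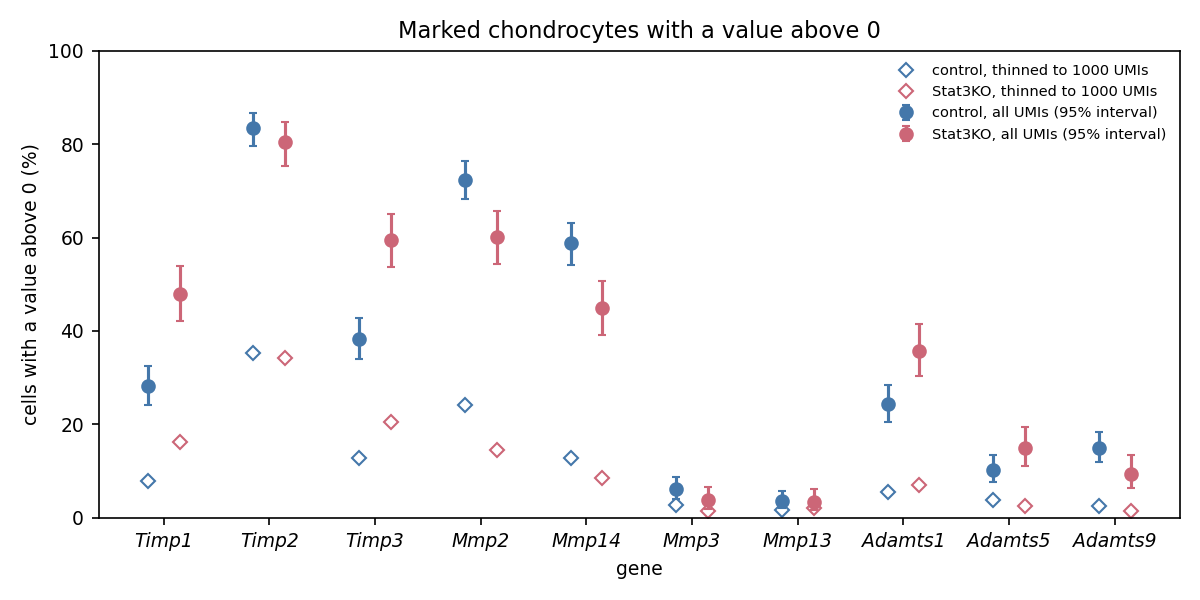
Percent of marked chondrocytes with a value above 0 (vertical axis) for 10 genes, filled circles with exact 95% intervals for all UMIs and open diamonds after thinning to 1000 UMIs, blue for the control and red for the Stat3KO library. The diamonds of Timp1 (7.97% and 16.2%) and Timp3 (12.7% and 20.4%) are higher in red, and those of Mmp2 (24.1% and 14.4%) and Mmp14 (12.7% and 8.45%) are lower in red; the intervals cover counting error only.

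In Bglap+Ibsp+ cells 19 members met the limits; none was 2-fold higher and 4 were 2-fold lower, beside 4.33% and 12.2% of 5353 genes. The median was -0.65, against -0.22 over all genes. Mmp13 had the lowest ratio, -1.94, from about 532 control and 138 Stat3KO UMIs, and at equal depth 19.7% of control and 8.33% of Stat3KO cells were above 0. In the control library 3 cells held 40.6% and in the Stat3KO library 65.4% of the Mmp13 UMIs. Without the highest cell of each library the ratio was -2.39, and among the settings tried it ranged from -3.29 without cells carrying globin to -1.27 when 2 UMIs of each marker were required. Chondrocyte markers were also lower in this class, with Col2a1 at 4703 and 615 CPM and Acan at 313 and 16.4 CPM. Of the genes that define the class, Bglap was higher, at 13971 and 47573 CPM, and Ibsp lower, at 5611 and 3487 CPM. The part of these differences in the Mmp13 result was not tested. Of the marked chondrocytes, 8.13% in the Stat3KO library (27 cells) and 1.20% in the control (6 cells) also met the Bglap and Ibsp definition and were left out; with such cells kept in both classes the Mmp13 ratio was -1.78. Of the 15 genes that respond to cell dissociation, 6 were 2-fold higher and 0 lower in this class.

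The other members past 2-fold in Bglap+Ibsp+ cells were Adamts9 (147 and 69.0 CPM, ratio -1.08), Adamts10 (57.3 and 23.9 CPM, ratio -1.23) and Adamts12 (44.3 and 13.5 CPM, ratio -1.65). Adamts10 is linked to fibrillin microfibrils and Adamts12 can cleave COMP. With each cell weighted equally the Adamts12 ratio was 0.18, so its direction rested on the weighting. The ratio of Adamts9 was within 2-fold under 5 and that of Adamts10 under 2 of 10 alternatives. Timp1, at 322 and 223 CPM, had a ratio of -0.53 in this class, opposite in sign to the other 4 classes and within 2-fold.

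In Pi16+Cd34+ cells 25 members met the limits, of which 1 was 2-fold higher and 7 were 2-fold lower, beside 8.78% and 12.8% of 6012 genes. Timp1 was at 20.2 CPM in the control, from about 5.73 UMIs in 5 cells, and at 83.7 CPM in the Stat3KO library, from about 19.8 UMIs in 10 cells, a ratio of 2.0. At equal depth 1.22% and 6.67% of cells were above 0, and the control share of 6.02% at full depth had an interval of 1.99% to 13.5%. The 7 lower members were Adam19, Adam33, Adamts12, Adamts15, Adamts16, Mmp16 and Mmp23, with ratios from -3.10 to -1.13. Each rested on at most about 14.0 UMIs in the Stat3KO library.

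Adamts15, a versican-cleaving protease, was above 0 in 37.3% of control and 6.67% of Stat3KO Pi16+Cd34+ cells and in 17.1% and 0% after thinning; from 43 and 4 rounded UMIs it was 8.96 times higher in the control, with a counting interval of 3.26 to 34.4. For Adamts16 (11 and 1 rounded UMIs) the control was 9.17 times higher with an interval of 1.33 to 394, and for Mmp16 (11 and 2) 4.58 times with an interval that began at 1 and ended at 42.5. Mmp2 and Mmp14 were close to 2-fold lower, with ratios of -0.98 and -0.92. In the 18 control cells of this class without globin the ratios of Adam33, Adamts12 and Mmp16 were within 2-fold (-0.19, -0.52 and -0.90), and of the members that met the limits there 3 were 2-fold higher and 1 lower. Among the 15 dissociation genes 10 were 2-fold higher in the Stat3KO library in this class and 0 lower, with a median ratio of 1.08; the tendon and ligament marker Comp was also at 33.9 CPM in control and 1097 CPM in Stat3KO cells. The part of either in these ratios was not tested.

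In Tnmd+Thbs4+ cells 22 members met the limits, with 3 at least 2-fold higher and 4 at least 2-fold lower, beside 9.27% and 14.5% of 5761 genes. Timp1 had the highest ratio, 2.22, at 138 CPM in control and 650.0 CPM in Stat3KO cells, but 1 of the 30 Stat3KO cells held 80.6% of its UMIs. Without the highest cell of each library the ratio was 0.01, and when 2 UMIs of each marker were required it was 0.14. At equal depth 11.2% of control and 20% of Stat3KO cells were above 0 for Timp1. Timp3, with 475 and 976 CPM, had a ratio of 1.04, or 0.76 without the highest cells, and Mmp3 had a ratio of 1.39 from about 16.7 and 6.98 UMIs. Timp3 was within 2-fold under 4 and Mmp3 under 3 of 10 alternatives.

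Adamts5 was the most abundant of the lower members in Tnmd+Thbs4+ cells, at 107 CPM in the control (28.3% of cells above 0) and 22.0 CPM in the Stat3KO library (10% of cells), a ratio of -2.23 that was between -3.08 and -1.78 in the alternatives. Its Stat3KO level rested on 4 rounded UMIs in 3 cells, and the control was 4.84 times higher with a counting interval of 1.84 to 18.0. Adam12 (56 and 1 rounded UMIs), Adamts6 (44 and 1) and Adamts3 (61 and 3) were 8.61, 6.76 and 3.12 times higher in the control, with intervals of 1.48 to 346, 1.15 to 273 and 1.02 to 15.6. Adamts3 processes procollagens and Adam12 is a membrane protease of mesenchymal cells. Mmp13, below the limits here, was at 40.5 CPM in 7 control cells and at 0 in the 30 Stat3KO cells, for which the exact interval of the share ends at 11.6%. Control cells of this class carried more Col2a1 (2052 against 82.2 CPM), and its part in these ratios was not tested.

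In Prg4+Clic5+ cells 19 members met the limits, and 0 were 2-fold higher and 2 were 2-fold lower, beside 5.13% and 5.96% of 5753 genes. Adamts12 was at 41.3 and 11.2 CPM (ratio -1.80) and Adam23, an Adam protein without protease activity, at 39.9 and 7.45 CPM (ratio -2.28), from about 43 and 4 rounded UMIs. Both were past 2-fold in each of the 10 alternatives. Timp1 was at 210.2 and 308 CPM, a ratio of 0.55, and was above 0 in 14.0% and 24.1% of thinned cells. The other 17 members had ratios between -0.96 and 0.55, with a median over the 19 of -0.23. The dissociation genes moved the other way here, with 4 of 15 lower, 1 higher and a median of -0.72.

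**Figure D5:**
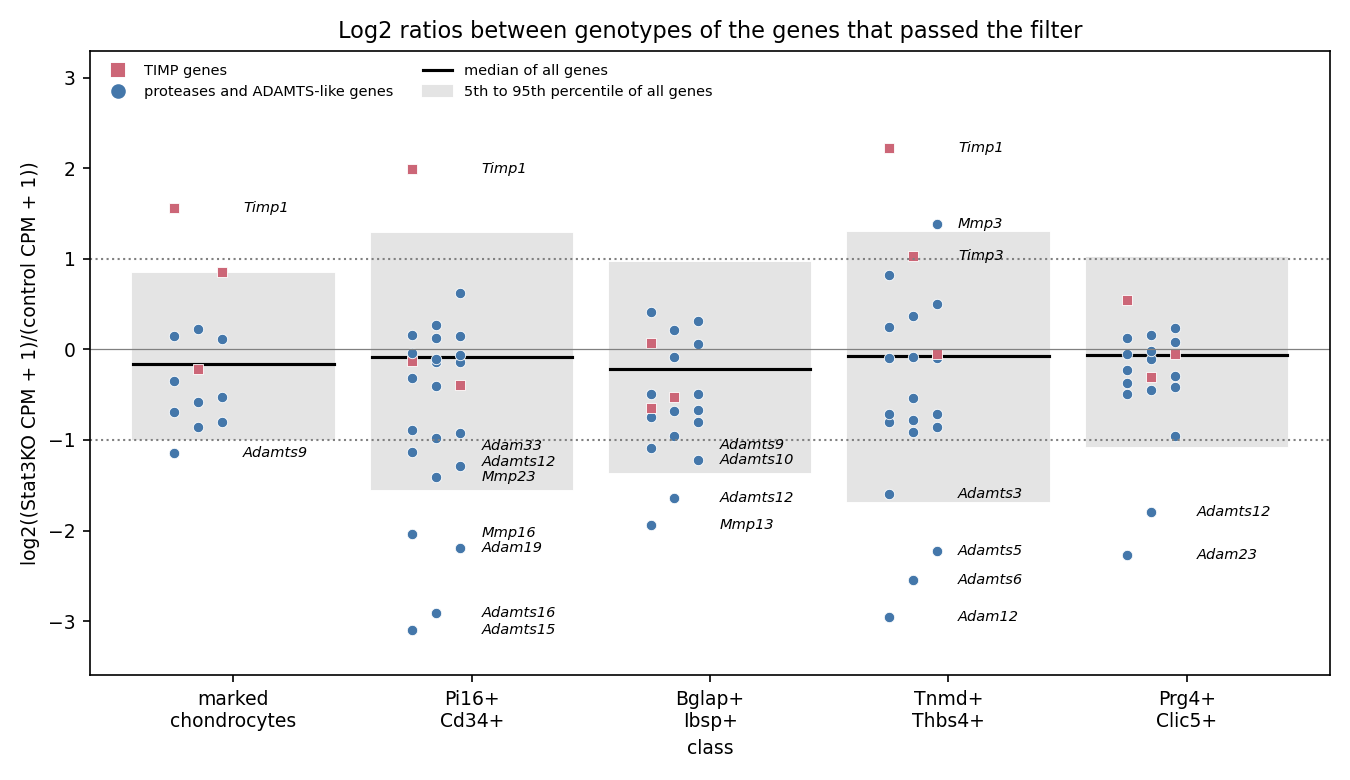
Log2 ratio between genotypes (vertical axis) of each member that met the limits, by class; red squares are Timp genes, blue circles all other members, the black line the median and the grey box the 5th to 95th percentile of all genes compared. Names mark members past 2-fold (dotted lines), of which Timp1 is above the box in marked chondrocytes, Pi16+Cd34+ and Tnmd+Thbs4+ cells, although 1 cell carries the last of these values.

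Across the classes, Timp1 was the member past 2-fold and higher most often, in 3 of 5, and Adamts12 the member past 2-fold and lower most often, also in 3 of 5. The share of all genes past 2-fold in the same direction in 3 of 5 classes was not counted. Whether these members stand out from other genes in this was thus not tested. The 5 comparisons are between the same 2 libraries and do not count as repeats. The Timp1 ratio in Tnmd+Thbs4+ cells was 0.01 without the highest cell of each library, and that of Adamts12 was 0.18 in Bglap+Ibsp+ cells with cells weighted equally and -0.52 in Pi16+Cd34+ cells without globin. Mmp2, Mmp16, Adam10, Adam17, Adamts2 and the inhibitor Timp2 were among the members with ratios below 0 wherever they met the limits. The median ratio of all genes was also below 0 in each class, from -0.22 to -0.06. Mmp14 had ratios from -0.92 to -0.68 in 4 classes and of 0.16 in Prg4+Clic5+ cells.

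Other secreted proteases and inhibitors were read from a list of 38 genes outside the families. In marked chondrocytes 21 met the limits, 3 were 2-fold higher (Cst3, Ctsl and Plaur) and 0 lower; in Pi16+Cd34+ cells 3 of 25 were higher and 4 lower, in Bglap+Ibsp+ cells 3 and 3 of 21, in Tnmd+Thbs4+ cells 3 and 3 of 25 and in Prg4+Clic5+ cells 3 and 1 of 20. Over all genes the shares 2-fold higher and lower were 3.21% and 4.92%, 8.78% and 12.8%, 4.33% and 12.2%, 9.27% and 14.5%, and 5.13% and 5.96% in the same order of classes. Cst3, the cysteine protease inhibitor cystatin C, was at 1640 and 4328 CPM in marked chondrocytes, a ratio of 1.40, and had ratios of 1.03 in Pi16+Cd34+, 1.09 in Bglap+Ibsp+, 0.61 in Tnmd+Thbs4+ and 0.23 in Prg4+Clic5+ cells. Ctsl, a cysteine protease of the lysosome, was at 78.0 and 160 CPM there, a ratio of 1.03, and had ratios from 0.98 to 1.11 in the other classes. Reck, a membrane-anchored inhibitor of Mmp proteins, was at 104.5 and 42.1 CPM in Pi16+Cd34+ cells (ratio -1.29) and had a ratio of -0.05 in marked chondrocytes.

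The 7 matrix genes read as substrates (Acan, Vcan, Comp, Fn1, Col1a1, Col2a1 and Col3a1) had ratios below 0 in marked chondrocytes, as did 3316 of all 5382 genes compared. The median of the 7 was -0.42, beside -0.16 over all genes, and Comp (-0.10), Vcan (-0.09) and Fn1 (-0.22) lay near the latter. Col2a1, one of the genes by which these cells were chosen, was at 45345 and 33905 CPM. Fn1, which encodes fibronectin, was at 15739 and 14063 CPM in Prg4+Clic5+ cells. Vcan, the gene of versican, was at 1054 and 571 CPM in Pi16+Cd34+ cells, the class in which the versican-cleaving Adamts1 and Adamts15, and Adamts5, had their highest control level. Adamts9, also a protease of versican, was highest in Bglap+Ibsp+ cells, where Vcan was at 306 and 85.2 CPM.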

How the data were processed

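Cells came from 1 library per genotype, each a pool of mice. The authors processed reads in Partek with STAR 2.7.3a on mm10 and removed ambient RNA; the step the tables come from is not given in the sources used here. Gene values were deposited on a log2 scale, as CPM plus 1 for each cell. The authors also deposited an estimated count total for each cell, the mitochondrial share in percent, and the number of expressed genes, read as a score. Estimated UMIs were recovered from these as the cell's CPM times its total over 1000000; 74.8% of control and 97.3% of Stat3KO values above 0 lay within 0.1 of a whole number, so no count model was used. All cells were kept, including 694 control and 492 Stat3KO cells above 5% mitochondrial counts.

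UMIs were summed per class and library and scaled to CPM (Python 3.11.15, numpy 2.4.6, pandas 2.3.3, scipy 1.17.1). Ratios used a pseudocount of 1 CPM. Members named were Timp1 to Timp4, Mmp2, Mmp3, Mmp9, Mmp13, Mmp14, Adamts1, Adamts4, Adamts5, the 5 highest of each class, every member past 2-fold, and those higher outside the classes in both libraries; Adam10, Adam17, Adamtsl4, Adamtsl5 and Mmp16 in the class comparison were chosen after their values were seen. Counting intervals of ratios are exact conditional intervals on rounded UMIs. The members and lists were chosen with earlier results of these data known. Calculations were tested on simulated data. Alternatives were the pseudocount, the filter, the weighting and centring, and the choice of cells. The level of free RNA in a cell type that lacks these genes is not reported here.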

Additional observations from a re-analysis of the deposited data

How the results depend on the processing

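With no filter on low values the members past 2-fold numbered 10 in marked chondrocytes, 24 in Pi16+Cd34+, 25 in Bglap+Ibsp+, 27 in Tnmd+Thbs4+ and 12 in Prg4+Clic5+ cells. In that setting 37 of 68 members had the same highest class in both libraries, compared with 42.3% of all genes. The shares of all genes past 2-fold were not counted under the alternatives, so these counts of members past 2-fold have no background beside them. In marked chondrocytes the count was 1 with a pseudocount of 10 CPM, with cells weighted equally and with cells of several classes kept. In Pi16+Cd34+ cells it was 4 without cells carrying globin (18 control cells) and 3 when 2 UMIs of each marker gene were required (17 Stat3KO cells). In Bglap+Ibsp+ cells it was 2 with a pseudocount of 10 CPM and 7 with cells weighted equally, the setting in which Adamts12 reversed to 0.18. In Tnmd+Thbs4+ cells it was 12 without the top cell of each library, an alternative chosen after seeing the data. In marked chondrocytes the count was 3 with all cells above 0 for Sox9 and Col2a1, also chosen after seeing the data. Of 23 ratios past 2-fold, 13 stayed so under all alternatives. The cause of these changes was not tested.

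No paired analysis was possible because each genotype has 1 library. Animals within a pool cannot be told apart, so no spread between mice was measured. The classes held 30 to 475 cells per library, and in the Stat3KO library several lower members rested on 1 to 5 UMIs, where a 2-fold difference is within counting error for some. Depth, globin and mitochondrial share differed between the libraries together with the genotype.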

Other observations

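The cells that met none of the 5 class definitions, 3663 of the control and 794 of the Stat3KO library, held most UMIs of some members. They held 63.0% of the control and 60.0% of the Stat3KO UMIs of Mmp13, at 73.1 and 158 CPM, and 72.7% and 90.1% of those of Mmp9, the gelatinase of osteoclasts, at 2.25 and 6.18 CPM. Timp4, an inhibitor with narrow expression, was at 0.465 CPM there in control cells, from about 8 UMIs in 7 cells, and at 29.8 CPM in Stat3KO cells, from about 81.9 UMIs in 25 cells, of which 3 held 47.6% of the UMIs. Mmp8, a collagenase of neutrophils, was the member with a higher level there than in each class of both libraries, but from only about 12 UMIs in 5 control cells and about 1 UMI in 1 Stat3KO cell. These values mix many cell types, whose shares differ between the libraries.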
